A study of Mus musculus with 36 samples.

Results

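The starvation response of mouse embryonic fibroblasts (MEFs) deleted for the kinase GCN2 was set against that of wild-type (WT) MEFs. The quantity followed for every gene was the difference of responses, that is the change with amino acid starvation in the GCN2-deletion line minus the same change in WT. It rested on 12 of the 36 libraries of the series, taken by their labels: 3 each of starved GCN2-deletion cells, untreated GCN2-deletion cells, starved WT cells and untreated WT cells. Starved cells spent 6 h in RPMI 1640 SILAC medium without lysine and arginine, and untreated cells stayed in RPMI 1640 with serum. The labels name no group kept in the complete form of that medium, so the loss of the amino acids and the change of medium cannot be told apart. They give the genotype as "GCN2 delete" without the allele or the exons removed, and they name 1 line per genotype, so genotype and line cannot be told apart. The 3 libraries of a group are labelled as technical replicates, so p-values and intervals cover technical spread within 1 line and not variation between cultures or lines. Values are TPM, a length-scaled share of all transcripts in a library, so a lower level per cell and fewer cells with the transcript cannot be told apart.

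GCN2 is the kinase that binds uncharged tRNA when amino acids run short and phosphorylates the translation factor eIF2alpha. That lowers protein synthesis in general and lets the mRNA of the transcription factor ATF4 be translated. ATF4 and its partners then raise genes for amino acid synthesis, amino acid import and tRNA charging, and feedback genes that end the response, a programme called the integrated stress response (ISR). PERK, PKR and HRI are the other kinases of eIF2alpha, and they answer to endoplasmic reticulum (ER) stress, double-stranded RNA and haem shortage.

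Eif2ak4, the gene of GCN2 on chromosome 2, was the first check of the labels. It had 5.43, 5.9 and 5.52 TPM in starved GCN2-deletion cells and 4.54, 5.52 and 5.69 TPM in untreated ones, against 22.9, 21.9 and 21.5 TPM in starved WT cells and 28.1, 25.2 and 20.5 TPM in untreated ones. Every GCN2-deletion library was below every WT library, and transcript remained in all 6. The labels do not say which stretch of the gene was deleted, so these levels show lowered and not absent transcript. Eif2ak4 was called changed by starvation in neither line (difference of responses 0.22, 95% interval -0.16 to 0.60, adjusted p = 0.571). All adjusted p-values are from limma with Benjamini-Hochberg adjustment over the 16083 genes tested. The PERK gene Eif2ak3 fell with starvation by much the same amount in both lines, by 0.64 in the GCN2-deletion line and 0.68 in WT on the log2(TPM + 1) scale (difference 0.03, interval -0.25 to 0.32). For the HRI gene Eif2ak1 the difference was -0.03 (interval -0.18 to 0.13). The PKR gene Eif2ak2 was called higher in response, among the 2 such genes of 14 interferon-stimulated ones tested. With DMSO-treated controls 0 of the 14 were called higher.

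The libraries were alike in most respects, with 1 exception among the untreated WT cells. Untreated WT replicate 1 had correlations of 0.967 and 0.962 with the other 2 libraries of its group, which had 0.982 with each other, across genes on the log2(TPM + 1) scale. It held 9.49% of its TPM in mitochondrial transcripts, against 7.26% and 7.54% in the other 2, and listed 13972 genes at 1 TPM or more, against 13230 and 12777. The median SD of a gene over replicates was 0.089 in starved GCN2-deletion cells, 0.116 in untreated GCN2-deletion cells, 0.075 in starved WT cells and 0.195 in untreated WT cells.

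Similar shares of the genes tested were called as rising with starvation, 1887 (11.7%) in the GCN2-deletion line and 2016 (12.5%) in WT. That similarity depended on the weights. The counts were 4169 and 1250 with array weights by restricted likelihood, and 3488 and 2413 with weights estimated gene by gene. Among the 240 with a WT rise of 2-fold or more, the rise was lost in the GCN2-deletion line for 91 and reversed for 42. In WT, 14 of 16 amino acid synthesis genes, 10 of 16 amino acid transporters and 15 of 20 cytosolic tRNA synthetases rose. In the GCN2-deletion line 1, 2 and 2 of them rose. The difference of responses was lower for 670 genes (4.17% of those tested) and higher for 593 (3.69%), at an adjusted p under 0.05. Without untreated WT replicate 3 the counts were 659 lower and 1239 higher, and without untreated GCN2-deletion replicate 3 they were 624 and 676. With array weights estimated gene by gene they were 1384 and 2635. Which direction had more genes therefore depended on single libraries and on the weights. By at least 2-fold the difference of responses was lower for 188 genes (1.17%) and higher for 57 (0.354%). Its median over all genes was 0.064. Of the 188 genes, 103 had no call in the GCN2-deletion line and rose in WT, 70 fell in the GCN2-deletion line and rose in WT, and 12 rose in both. Without untreated WT replicate 1 the 2-fold counts were 194 lower and 40 higher, and without untreated WT replicate 3 they were 169 lower and 111 higher. All of the 188 that were tested kept their sign in each of 22 alternatives (12 of them with 1 library left out), whereas 2 of the 57 turned sign when DMSO-treated cells took the place of the untreated controls.

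**Figure D1:**
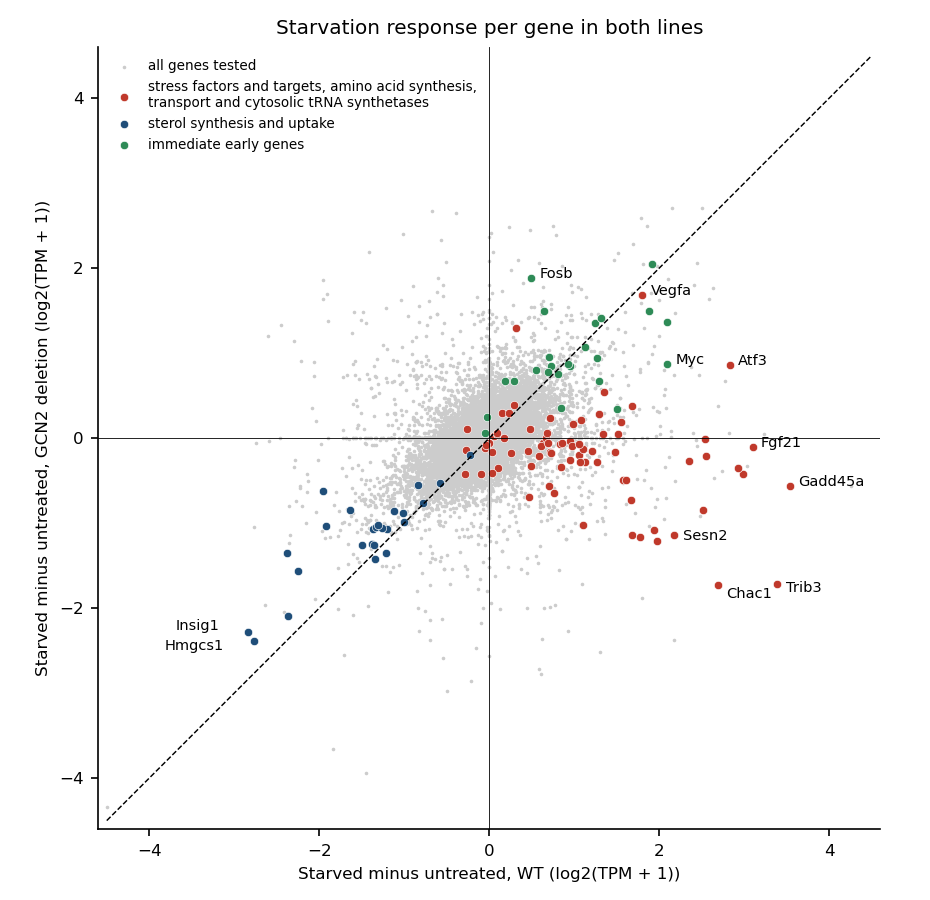
Starvation response of each of the 16083 genes tested, with the change in the GCN2-deletion line on the vertical axis and the change in WT on the horizontal axis, both as starved minus untreated means of log2(TPM + 1). Genes of the ISR lists (red) spread to the right along or below zero on the vertical axis, while sterol genes (blue) and most immediate early genes (green) lie near the dashed line of equal response. Trib3 sits at -1.72 in the GCN2-deletion line and 3.39 in WT.

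In WT, 240 genes rose at least 2-fold with starvation (1.49% of genes tested), and they were sorted by what the GCN2-deletion line did. For 42 the call was reversed, with a fall in the GCN2-deletion line, and for 91 the rise was lost, with no call there. A further 45 rose in both lines but less in the GCN2-deletion line, 42 rose in both with an interval of the difference inside 2-fold either way and no call, and 20 fitted none of these. The 4 named by the largest WT change were Gadd45a, Trib3, Adm2 and Acot2 among the reversed genes and Fgf21, Ciart, Slc7a11 and Cth among the lost ones. Among the reduced genes they were Atf3, Arid5a, Ptgs2 and Rgs16, and among those that rose alike Fgf2, Has2, Hbegf and Egr2. The reversed class held 34 to 45 genes and the lost class 76 to 104 when single libraries were left out, and the 20 unsorted genes became 39 without untreated WT replicate 2. Over the other settings the reversed class held 36 to 62 genes, the lost class 57 to 130 and the unsorted genes 7 to 76.

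The stress transcription factors of the bZIP family and their partner Nupr1, which drive the programme, were all called lower: 7 of 7, where 4.17% of all genes were, with a median difference of -0.98. Atf4 had 305, 306 and 332 TPM in starved GCN2-deletion cells and 323, 326 and 315 TPM in untreated ones, against 1074, 1083 and 1079 TPM in starved WT cells and 535, 562 and 579 TPM in untreated ones. The 3 starved GCN2-deletion libraries stood at the untreated level of their line, while all 3 starved WT libraries stood well above untreated WT (difference -0.98, interval -1.12 to -0.85, adjusted p = 1.64e-11). Ddit3, which encodes the pro-death factor CHOP, had 16.6, 16.8 and 16.8 TPM in starved GCN2-deletion cells and 34.9, 38.7 and 35.8 TPM in untreated ones, against 229.5, 264 and 263 TPM in starved WT cells and 65.2, 63.1 and 67.2 TPM in untreated ones. In the GCN2-deletion line every starved library was below every untreated one, and in WT every starved library was above every untreated one (difference -3.01, adjusted p = 4.13e-19). Nupr1, a small chromatin-associated stress protein, had 27.9, 26.2 and 26.3 TPM starved and 34.2, 33.7 and 29.8 TPM untreated in the GCN2-deletion line, and 201, 219 and 221 TPM starved and 41.5, 38.7 and 42.7 TPM untreated in WT (difference -2.62, adjusted p = 1.18e-14).

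Atf3, an ATF4 target and bZIP repressor, was 1 of 2 members that still rose in the GCN2-deletion line. It had 6.28, 6.49 and 9.82 TPM in starved GCN2-deletion cells and 3.49, 3.61 and 3.75 TPM in untreated ones, against 59.4, 70.2 and 73.1 TPM in starved WT cells and 6.75, 10.0 and 9.4 TPM in untreated ones. The starved libraries were above the untreated ones in both lines, by 0.86 in the GCN2-deletion line and 2.83 in WT on the log2(TPM + 1) scale, and the difference was -1.97 (interval -2.39 to -1.54, adjusted p = 7.4e-08). Cebpg, the other one and a dimer partner of ATF4, rose by 0.55 in the GCN2-deletion line and 1.35 in WT (difference -0.80, adjusted p = 0.000669). Cebpb rose only in WT by the test (-0.16 on deletion of GCN2, adjusted p = 0.424, against 0.71 in WT), with a difference of -0.87 (adjusted p = 0.00214). Atf5 had the smallest difference (-0.45, adjusted p = 0.00139), which did not pass against DMSO-treated controls (-0.24, adjusted p = 0.141).

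Downstream feedback and stress genes included Trib3, which had the lowest difference of all genes tested. Of 18 measured, 15 were lower and 2 higher, with a median of -2.10. Trib3, a pseudokinase that restrains ATF4 and AKT, had 1.53, 0.82 and 1.11 TPM in starved GCN2-deletion cells and 6.13, 5.89 and 6.01 TPM in untreated ones, against 188, 203 and 220.3 TPM in starved WT cells and 20.7, 18.2 and 16.7 TPM in untreated ones. Starved GCN2-deletion libraries were under all others and starved WT libraries above all others, and the responses differed 34.4-fold on the TPM + 1 scale (-5.11, interval -5.46 to -4.75, adjusted p = 7.29e-18). Chac1, which breaks down glutathione, had 3.04, 2.87 and 2.62 TPM in starved GCN2-deletion cells and 12.3, 11.7 and 11.2 TPM in untreated ones, against 164, 192 and 185 TPM in starved WT cells and 24.6, 28.1 and 28.7 TPM in untreated ones (difference -4.41, adjusted p = 3.18e-17). As with Trib3, all starved GCN2-deletion libraries were under the untreated ones of their line, and the order was the opposite in WT.

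Gadd45a, a growth arrest and DNA damage gene, had 5.93, 5.66 and 5.4 TPM in starved GCN2-deletion cells and 9.5, 9.44 and 7.79 TPM in untreated ones, against 132, 158 and 161 TPM in starved WT cells and 12.2, 11.6 and 12.2 TPM in untreated ones (difference -4.10, adjusted p = 7.29e-18). Starved GCN2-deletion cells were again the lowest of the 4 groups. Fgf21, the stress hormone of amino acid deprivation, was nearly absent outside starved WT cells, with 0.0608, 0 and 0 TPM starved and 0, 0.146 and 0.141 TPM untreated in the GCN2-deletion line, and 8.92, 11.2 and 11.6 TPM starved and 0.0851, 0.445 and 0.556 TPM untreated in WT. Its difference was -3.20 (adjusted p = 5.11e-12), a value that depends on the pseudocount because 3 groups lay under 1 TPM (-5.34 with 0.1). Adm2, a peptide hormone of the calcitonin family, had 0.508, 0.649 and 0.631 TPM starved and 1.19, 1.12 and 1.13 TPM untreated in the GCN2-deletion line, and 7.72, 9.27 and 10.1 TPM starved and 0.294, 0.276 and 0.215 TPM untreated in WT (difference -3.41, adjusted p = 6e-16).

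Ppp1r15a, which encodes the eIF2alpha phosphatase subunit GADD34, had 26.4, 24.4 and 27.9 TPM in starved GCN2-deletion cells and 24, 32.5 and 23.3 TPM in untreated ones, against 110.4, 141 and 144 TPM in starved WT cells and 18.7, 21.4 and 25.1 TPM in untreated ones. The GCN2-deletion groups overlapped and the WT groups did not (difference -2.55, adjusted p = 1.63e-11). The mTORC1 inhibitors Sesn2 and Ddit4 differed by -3.32 and -2.82, and Herpud1, an ER membrane protein of protein degradation, by -3.18. Each of these 3 fell in the GCN2-deletion line, by 1.14, 1.14 and 1.21 on the log2(TPM + 1) scale. Sesn2 averaged 4.88 ± 0.473 TPM starved and 11.9 ± 0.382 TPM untreated in the GCN2-deletion line, and 101 ± 4.24 and 21.7 ± 1.89 TPM in the starved and untreated WT cells (SD, 3 libraries each).

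Members of the same list stood against it. Vegfa, the vascular growth factor, had 218, 207 and 269 TPM in starved GCN2-deletion cells and 68.7, 64.6 and 81.1 TPM in untreated ones, against 305, 327 and 346 TPM in starved WT cells and 127, 87.1 and 71.6 TPM in untreated ones. The starved libraries were above the untreated ones in both lines, with no call for the difference (-0.12, interval -0.59 to 0.34, adjusted p = 0.829). Pmaip1, which encodes the BH3-only protein NOXA, was higher in response (0.98, adjusted p = 1.44e-05), with a mean of 22.2 TPM starved and 8.44 TPM untreated in the GCN2-deletion line, against 0.709 and 0.385 TPM in starved and untreated WT. With a pseudocount of 0.1 its difference was 0.57 (adjusted p = 0.168). Tnfrsf10b, a death receptor gene, was higher by 0.38 (adjusted p = 0.0143), a call lost without untreated WT replicate 2 and with DMSO-treated controls.

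**Figure D2:**
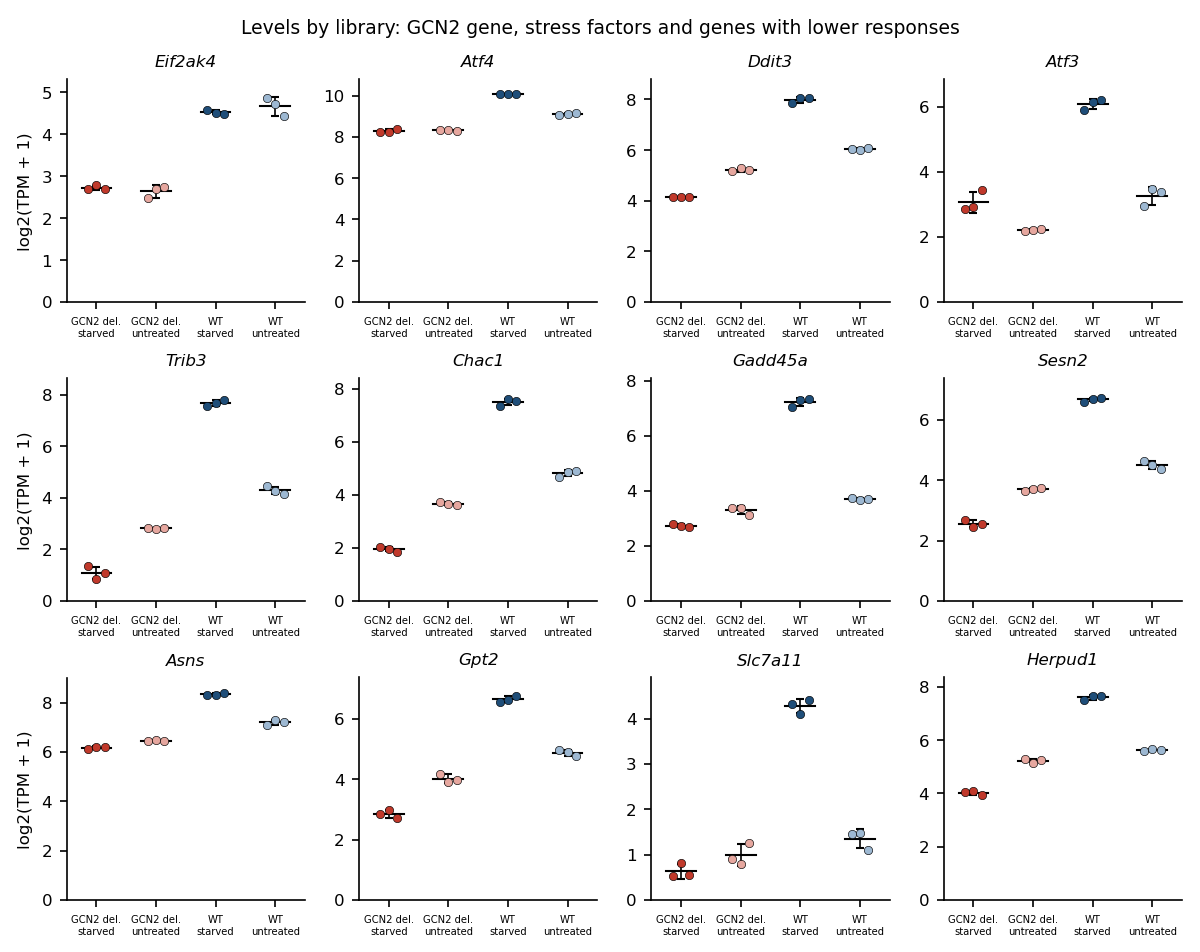
Levels of 12 genes in each library as log2(TPM + 1), with 3 points per group, a line at the mean and bars of 1 SD; each panel has its own vertical axis from zero. Eif2ak4 is low in both groups of the GCN2-deletion line. For Ddit3, Trib3, Chac1, Gadd45a, Sesn2, Asns, Gpt2 and Herpud1 the starved GCN2-deletion libraries are the lowest group and the starved WT libraries the highest.

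ATF4 binds DNA with C/EBP partners at a composite element whose core can be written TGATGNAA. That motif was searched on both strands of the 300-base promoter windows of RefSeq (build GRCm38.p6), which run from 250 bases before the annotated start to 50 after it. It was present in 3.97% of all 32851 windows. By gene, with the motif in any of its windows, it was present in 2.61% of the 9551 tested protein-coding genes that matched the table, of 12201 tested. Among protein-coding genes with a lower response the share was 10% (51 of 508 matched), and among those lower by at least 2-fold 20.1% (27 of 134). Among genes with a higher response it was 2.02% (9 of 446). Of the genes matched in each list it was held by 5 of 15 ISR targets, 4 of 13 synthesis genes, 2 of 10 transporters, 5 of 12 cytosolic tRNA synthetases and 0 of 14 mitochondrial ones. These are counts of a string of letters and say nothing of binding in these cells.

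The windows of 6 genes with lower responses are shown because they carry the motif, given in capitals on either strand, and span the roles described here: feedback, glutathione breakdown, a stress factor, cystine import, asparagine synthesis and glycine tRNA charging. They are Trib3 at chr2:152344011-152344310 (minus strand), Chac1 at chr2:119350992-119351291 (plus strand), Atf3 at chr1:191183284-191183583 (minus strand), Slc7a11 at chr3:50443564-50443863 (minus strand), Asns at chr6:7693160-7693459 (minus strand) and Gars at chr6:55037751-55038050 (plus strand), each written 5′ to 3′ in the direction of the gene. In Slc7a11 the motif occurs on both strands.
Trib3: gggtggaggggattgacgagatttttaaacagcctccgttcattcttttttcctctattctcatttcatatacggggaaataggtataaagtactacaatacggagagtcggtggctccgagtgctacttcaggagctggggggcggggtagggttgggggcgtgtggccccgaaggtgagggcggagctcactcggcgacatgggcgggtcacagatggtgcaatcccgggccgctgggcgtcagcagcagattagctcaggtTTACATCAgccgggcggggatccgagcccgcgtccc
Chac1: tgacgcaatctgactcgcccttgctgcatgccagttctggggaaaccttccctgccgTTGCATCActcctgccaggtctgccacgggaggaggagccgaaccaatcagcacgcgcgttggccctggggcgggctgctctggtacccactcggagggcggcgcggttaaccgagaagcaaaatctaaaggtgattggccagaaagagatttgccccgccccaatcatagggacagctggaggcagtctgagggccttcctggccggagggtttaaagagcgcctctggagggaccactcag
Atf3: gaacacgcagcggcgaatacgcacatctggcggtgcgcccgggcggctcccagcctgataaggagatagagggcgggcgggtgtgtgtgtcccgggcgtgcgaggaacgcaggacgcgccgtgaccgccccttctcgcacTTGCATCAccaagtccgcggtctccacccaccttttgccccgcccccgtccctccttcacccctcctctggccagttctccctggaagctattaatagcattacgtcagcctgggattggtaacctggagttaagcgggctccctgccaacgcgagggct
Slc7a11: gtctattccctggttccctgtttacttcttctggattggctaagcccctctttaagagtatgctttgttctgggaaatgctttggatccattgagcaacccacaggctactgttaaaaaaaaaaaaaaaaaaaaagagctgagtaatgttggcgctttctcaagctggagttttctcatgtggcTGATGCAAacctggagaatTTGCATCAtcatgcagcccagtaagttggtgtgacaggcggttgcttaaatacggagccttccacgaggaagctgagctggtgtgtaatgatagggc
Asns: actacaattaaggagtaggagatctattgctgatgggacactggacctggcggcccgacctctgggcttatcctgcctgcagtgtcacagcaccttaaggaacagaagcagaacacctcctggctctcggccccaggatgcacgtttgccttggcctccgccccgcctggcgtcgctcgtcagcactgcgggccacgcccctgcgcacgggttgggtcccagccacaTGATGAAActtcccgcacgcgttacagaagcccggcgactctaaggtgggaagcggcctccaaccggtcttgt
Gars: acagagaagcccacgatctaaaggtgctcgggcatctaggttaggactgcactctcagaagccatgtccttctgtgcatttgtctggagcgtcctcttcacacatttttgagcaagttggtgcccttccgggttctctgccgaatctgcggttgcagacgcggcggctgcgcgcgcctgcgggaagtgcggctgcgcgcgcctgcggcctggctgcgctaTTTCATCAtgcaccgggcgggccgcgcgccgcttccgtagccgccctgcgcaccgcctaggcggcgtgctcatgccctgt

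Genes for making amino acids and for the one-carbon units that serine supplies followed the ISR genes. Of 16 tested, 14 were lower and 0 higher in the difference of responses, with a median of -1.30, and 14 were lower in every setting and with any library left out. Asns, asparagine synthetase, had 67.9, 73.3 and 71.4 TPM in starved GCN2-deletion cells and 86.8, 87.1 and 86 TPM in untreated ones, against 314, 311 and 334 TPM in starved WT cells and 136, 154 and 148 TPM in untreated ones. Starved libraries were below untreated ones in the GCN2-deletion line and above them in WT (difference -1.42, interval -1.57 to -1.26, adjusted p = 9.38e-14). Gpt2, a mitochondrial alanine aminotransferase, had 6.18, 6.92 and 5.63 TPM starved and 17.1, 14.1 and 14.5 TPM untreated in the GCN2-deletion line, and 93.7, 98.2 and 107 TPM starved and 30.0, 28.9 and 26.3 TPM untreated in WT (difference -2.94, adjusted p = 1.68e-11). Cth, the last enzyme of cysteine synthesis from methionine, averaged 4.33 ± 0.272 TPM starved and 5.17 ± 0.331 TPM untreated in the GCN2-deletion line, against 117 ± 6.54 and 19.1 ± 0.37 TPM in starved and untreated WT (difference -2.77, adjusted p = 4.97e-16). Pck2, mitochondrial phosphoenolpyruvate carboxykinase, differed by -2.13, the serine phosphatase gene Psph by -2.07, and the mitochondrial folate enzyme genes Aldh1l2 and Mthfd2 by -2.10 and -1.26. The smallest called difference was that of Psat1, phosphoserine aminotransferase (-0.61, adjusted p = 7.59e-07).

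The exceptions were the pair of enzymes that remake arginine from citrulline. Ass1, argininosuccinate synthetase, differed by -0.05 (interval -0.25 to 0.15) and Asl, argininosuccinate lyase, by -0.14 (interval -0.35 to 0.07). Neither passed (adjusted p = 0.859 and 0.509), and Asl fell in both lines, by 0.42 in the GCN2-deletion line and 0.28 in WT. Arginine was 1 of the 2 amino acids left out of the medium.

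Amino acid transporters were lower for 9 of 16 and higher for 0, with a median of -0.99. Slc7a11, the cystine importer, had 0.435, 0.772 and 0.472 TPM in starved GCN2-deletion cells and 0.868, 0.736 and 1.39 TPM in untreated ones, against 18.9, 16.3 and 20.2 TPM in starved WT cells and 1.75, 1.79 and 1.16 TPM in untreated ones. The GCN2-deletion groups lay side by side near or under 1 TPM, and starved WT stood apart from all other groups (difference -3.28, adjusted p = 1.21e-10). Slc6a9, the glycine transporter, had 4.04, 5.89 and 3.93 TPM starved and 9.06, 8.16 and 9.82 TPM untreated in the GCN2-deletion line, and 149.6, 158 and 168 TPM starved and 32.6, 25.3 and 23.9 TPM untreated in WT (difference -3.36, adjusted p = 2.66e-11). Slc1a4, a transporter of alanine, serine and cysteine, differed by -2.38, and both chains of the large neutral amino acid exchanger, Slc7a5 and Slc3a2, by -1.46 and -1.29. Slc7a1, the main carrier of lysine and arginine, still rose in the GCN2-deletion line, with 46.4, 47.5 and 52.7 TPM starved and 35.5, 33.9 and 43.6 TPM untreated, against 166, 173 and 184 TPM starved and 61.4, 58.1 and 43.4 TPM untreated in WT. Its groups did not overlap in either line, and the difference was -1.31 (adjusted p = 1.5e-05). No call was made for the cationic carriers Slc7a2 (-0.03, interval -0.43 to 0.37) and Slc7a3 (-0.32, interval -0.93 to 0.29), nor for Slc38a2 (-0.43, interval -0.75 to -0.10).

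Aminoacyl-tRNA synthetases, which load amino acids onto tRNA, had lower responses mostly among those of the cytosol. Of 20 cytosolic ones, 14 were lower and 0 higher, with a median of -0.66, and leaving out any library gave 14. Of 17 mitochondrial ones, 1 was lower, with a median of -0.02, and that call (Fars2, -0.39, adjusted p = 0.044) ended when any of 7 libraries was left out. Among the cytosolic genes the largest differences were those of Cars for cysteine (-1.42), Gars for glycine (-1.22) and Sars for serine (-1.21). Gars had 160.2, 163 and 158 TPM in starved GCN2-deletion cells and 178, 176 and 169 TPM in untreated ones, against 449.9, 457 and 472 TPM in starved WT cells and 198, 231 and 214 TPM in untreated ones. Its starved and untreated libraries in the GCN2-deletion line were close, and in WT the starved ones were all above (adjusted p of the difference = 2.26e-11).

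The synthetases for the 2 amino acids that were withheld behaved unlike each other. Rars, for arginine, had 168, 175 and 173 TPM starved and 146, 146 and 147 TPM untreated in the GCN2-deletion line, and 269, 268 and 278 TPM starved and 170.5, 169 and 156 TPM untreated in WT. It rose in both lines, less in the GCN2-deletion line (difference -0.49, interval -0.62 to -0.35, adjusted p = 5.27e-06). Kars, for lysine, had 283, 282 and 286 TPM starved and 268, 281 and 266 TPM untreated in the GCN2-deletion line, and 279.5, 276 and 274 TPM starved and 233, 279 and 271 TPM untreated in WT. It was called in neither line, and the difference was -0.02 (interval -0.18 to 0.14, adjusted p = 0.926). Dars, Farsa, Hars, Qars and Vars were the other cytosolic members with no call, with differences of -0.20 to 0.14.

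**Figure D3:**
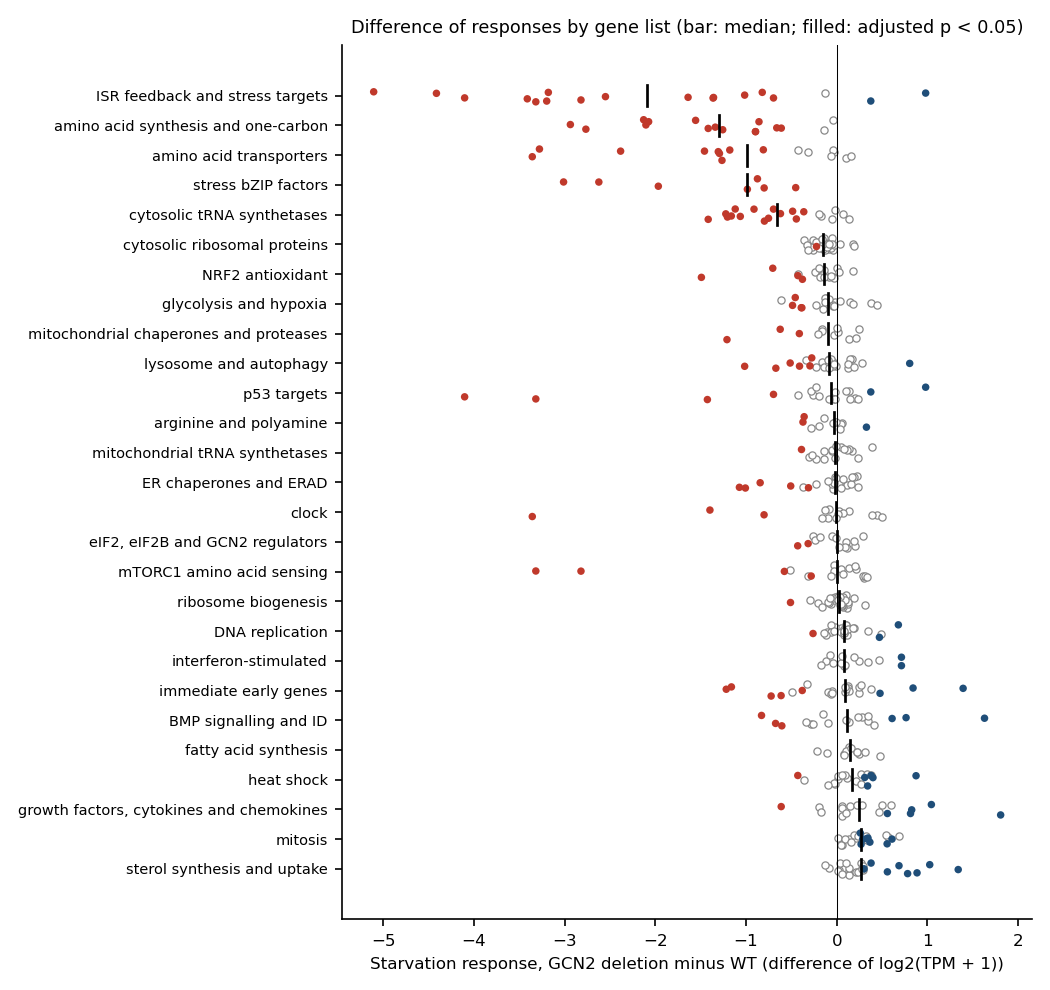
Difference of starvation responses, GCN2 deletion minus WT, for every tested member of 27 gene lists, ordered by the list median (black bar). Filled points passed an adjusted p of 0.05 (red lower, blue higher) and open points did not; the ISR, synthesis, transporter, bZIP and cytosolic tRNA synthetase lists lie at the top with medians of -2.10 to -0.66, and the sterol list lies at the bottom with 0.27.

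Most synthesis genes, cytosolic synthetases and bZIP factors already stood lower in the GCN2-deletion line before starvation. Untreated, 15 of the 16 synthesis genes, 12 of 20 cytosolic synthetases and 6 of 7 bZIP factors were lower in GCN2-deletion cells than in WT cells, where 23.2% of all genes were, and 0, 2 and 0 were higher, where 21.2% of all genes were. Transporters were lower in 8 and higher in 3 of 16 cases. ISR targets were mixed, with 6 of 18 lower and 5 higher. Lower untreated levels were not particular to these lists. They were called for 13 of 14 interferon-stimulated, 15 of 25 sterol, 8 of 12 fatty acid, 11 of 19 NRF2 and 15 of 30 ribosome biogenesis genes. Higher levels were called for 0, 3, 2, 4 and 2 of these. Of 24 immediate early genes 2 were lower and 16 higher. Untreated Asns averaged 86.7 ± 0.599 TPM in the GCN2-deletion line and 146 ± 9.05 TPM in WT, and untreated Cth 5.17 ± 0.331 and 19.1 ± 0.37 TPM. Untreated Slc1a4 (20.4 ± 1.28 TPM in the GCN2-deletion line, 21.8 ± 1.32 TPM in WT) and Ppp1r15a (26.6 ± 5.1 and 21.8 ± 3.19 TPM) did not pass the test (adjusted p = 0.41 and 0.0722), and both had lower responses. The untreated libraries enter both comparisons, so the values are set side by side and no relation between them is given.

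Falls with starvation were sorted in the same way. Of 188 genes that fell at least 2-fold in WT (1.17% of genes tested), 45 fell alike in both lines, 55 fell in both but less in the GCN2-deletion line, 22 had no call there, 0 rose there and 66 fitted none of these. These classes leaned on the untreated WT libraries. Without replicate 1 of that group the 22 became 8 and the 66 became 23, and without replicate 3 they became 61 and 115. Without replicate 2 the 66 became 112. Over the settings that kept all libraries of the group the 22 ran from 4 to 43 and the 66 from 14 to 228. Sterol synthesis and uptake genes, which the factor SREBP2 controls, fell in 24 of 25 cases in the GCN2-deletion line and 25 of 25 in WT, where 12.2% and 17.4% of all genes fell. The difference was higher, that is the fall was smaller in the GCN2-deletion line, for 8 of 25 and lower for 0, with a median of 0.27. The 8 became 12 with DMSO-treated controls and 17 with array weights estimated gene by gene. Insig1, which holds SREBP2 in the ER, had 12, 13.4 and 10.9 TPM in starved GCN2-deletion cells and 62.3, 62.3 and 62.6 TPM in untreated ones, against 11.1, 10.1 and 11.9 TPM in starved WT cells and 87.3, 87.9 and 79.9 TPM in untreated ones. Starved libraries of both lines ended at much the same level, and untreated libraries were lower in the GCN2-deletion line, so the fall was smaller there (difference 0.56, adjusted p = 0.000202). Idi1, isopentenyl diphosphate isomerase, differed by 1.03 (adjusted p = 3.1e-07). Hsd17b7, a late enzyme of the pathway, had 14.2, 17.9 and 17.8 TPM starved and 23.9, 24.6 and 29.8 TPM untreated in the GCN2-deletion line, and 6.5, 6.91 and 5.12 TPM starved and 28.3, 34.2 and 19.8 TPM untreated in WT (difference 1.34, adjusted p = 0.0002). For Sqle, squalene epoxidase, the difference was 0.14 with an interval of -0.03 to 0.31. Of 12 fatty acid synthesis genes 10 fell in the GCN2-deletion line and 9 in WT, and 0 passed the test of the difference, by limma (1 higher and 1 lower after rescaling the libraries by median of ratios, 1 higher without untreated GCN2-deletion replicate 3 or untreated WT replicate 3, and 4 higher with gene-by-gene weights).

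Ribosome biogenesis genes rose together in both lines, 25 of 30 in the GCN2-deletion line and 26 of 30 in WT, where 11.7% and 12.5% of all genes rose. The median difference was 0.03, and the single call was for Nop14, lower by 0.52 (adjusted p = 0.00101). Wdr43, a small-subunit processing factor, averaged 297 ± 16.9 TPM starved and 177 ± 12.4 TPM untreated in the GCN2-deletion line, against 343 ± 11 and 216 ± 32.1 TPM in starved and untreated WT (difference 0.07, interval -0.20 to 0.34).

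Immediate early genes, the first transcription factors to answer growth signals, rose in 22 of 24 cases in the GCN2-deletion line and 21 of 24 in WT. Of all genes, 11.7% and 12.5% rose. Egr2 had 11.5, 11.3 and 14 TPM in starved GCN2-deletion cells and 2.53, 1.61 and 2.59 TPM in untreated ones, against 10.5, 12.4 and 12 TPM in starved WT cells and 2.25, 2.29 and 2.53 TPM in untreated ones. Both starved groups stood clear of both untreated groups at overlapping levels (difference 0.13, interval -0.27 to 0.54, adjusted p = 0.782). For 5 members the response was lower and for 3 higher, where 4.17% and 3.69% of all genes were. Myc had 250.1, 239.9 and 276 TPM in starved GCN2-deletion cells and 132, 143 and 142 TPM in untreated ones, against 529.6, 611 and 587 TPM in starved WT cells and 134, 136 and 134 TPM in untreated ones. The untreated levels were alike, starved libraries were higher in both lines, and the rise was smaller in the GCN2-deletion line (difference -1.22, interval -1.42 to -1.02, adjusted p = 3.64e-10). Klf4 differed by -1.16 (adjusted p = 4.96e-06) and Dusp6, a phosphatase that restrains ERK, by -0.72 (adjusted p = 0.00169). Fosb went the other way, with 6.57, 7.95 and 10.9 TPM starved and 1.57, 1.22 and 1.79 TPM untreated in the GCN2-deletion line, and 1.21, 1.26 and 0.934 TPM starved and 0.61, 0.431 and 0.506 TPM untreated in WT (difference 1.39, adjusted p = 4.05e-05).

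Genes with 2-fold higher responses were fewer, and some were hardly expressed in WT. Of the 57, 20 rose in the GCN2-deletion line with no call in WT, 22 had no call in the GCN2-deletion line and fell in WT, and 15 had both WT means under 1 TPM. For genes near zero in 1 line the size of a response on log2(TPM + 1) follows the level as well as the fold. Gjb2, a gap junction gene, had 188, 192 and 224 TPM starved and 46.7, 45.3 and 46.8 TPM untreated in the GCN2-deletion line, and 0.351, 0.344 and 0.254 TPM starved and 0.0888, 0.0176 and 0.0218 TPM untreated in WT. Its difference was 1.76 with a pseudocount of 1 (adjusted p = 3.06e-13) and 0.54 with 0.1 (adjusted p = 0.352). Mgll, monoacylglycerol lipase, was likewise near 0 in WT (difference 1.33, and 1.67 with adjusted p = 0.044 at a pseudocount of 0.1).

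Others kept their calls with the smaller pseudocount. Il11, a cytokine of the IL-6 family, had 4.41, 4.09 and 6.54 TPM in starved GCN2-deletion cells and 0.846, 0.627 and 1.18 TPM in untreated ones, against 0.304, 0.423 and 0.437 TPM in starved WT cells and 0.598, 0.468 and 0.541 TPM in untreated ones. All starved GCN2-deletion libraries stood above the other 9, and the WT groups lay together under 1 TPM (difference 1.81, adjusted p = 6e-06, and 2.77 with a pseudocount of 0.1). Arc, an activity-regulated gene, had 13.7, 11.6 and 17.2 TPM starved and 4.32, 4.71 and 4.71 TPM untreated in the GCN2-deletion line, and 3.74, 4.08 and 4.18 TPM starved and 3.79, 3.8 and 3.6 TPM untreated in WT (difference 1.35, adjusted p = 3.6e-08). Pdgfb, a platelet-derived growth factor chain, had 8.21, 9.23 and 11.6 TPM in starved GCN2-deletion cells and 2.67, 3.38 and 3.56 TPM in untreated ones, against 8.36, 10.9 and 9.88 TPM in starved WT cells and 10.2, 8.93 and 9.41 TPM in untreated ones. The untreated GCN2-deletion libraries were the low group, and starvation brought them to the level that WT cells had throughout (difference 1.31, adjusted p = 6.56e-07). Bmp4, a bone morphogenetic protein, had 1.74, 1.22 and 2.02 TPM starved and 2.5, 3.28 and 2.51 TPM untreated in the GCN2-deletion line, and 11.3, 14 and 11.4 TPM starved and 57.9, 52.7 and 60.3 TPM untreated in WT. It fell in both lines, less in the GCN2-deletion line, where its untreated level was far lower (difference 1.63, adjusted p = 8.14e-06). Odaph, best known from tooth enamel, had a difference of 2.25 (adjusted p = 7.5e-08), with 8.29, 9.23 and 15.1 TPM in starved and 1.31, 1.16 and 0.765 TPM in untreated GCN2-deletion cells and at most 0.431 TPM in the 6 WT libraries.

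**Figure D4:**
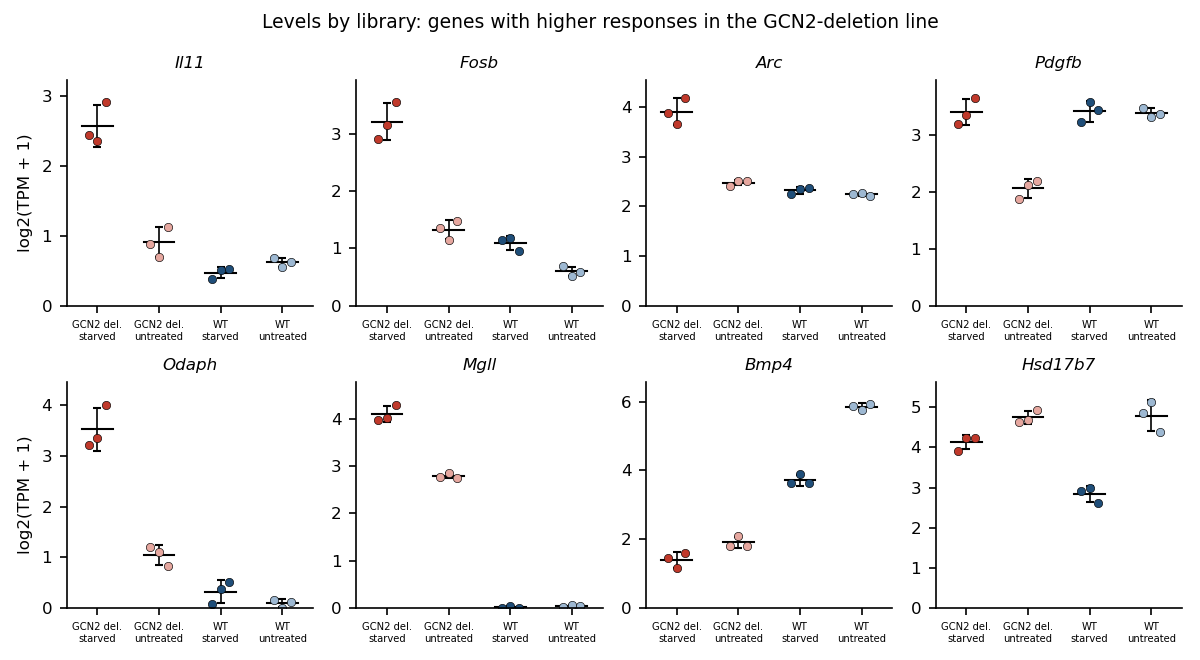
Levels of 8 genes with higher starvation responses in the GCN2-deletion line, as log2(TPM + 1) in each library, with 3 points per group, a line at the mean and bars of 1 SD; each panel has its own vertical axis from zero. Il11, Fosb, Arc and Odaph are higher in starved than in untreated GCN2-deletion cells, Mgll and Odaph lie near zero in WT, and the responses of Bmp4 and Hsd17b7 are higher with a larger fall in WT.

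Growth factor and cytokine genes were higher in 5 of 18 cases and lower in 1, with a median of 0.25, and higher in 3 without starved GCN2-deletion replicate 3 and 2 when the 4 groups were fitted alone. Besides Il11 these included Cxcl1, a neutrophil chemokine, which rose in the GCN2-deletion line and fell in WT (difference 1.04, adjusted p = 0.00773). Lif, a cytokine of the same family as Il11, differed by 0.81 (adjusted p = 0.0107), a call that likewise ended without that library. Hbegf, a ligand of the EGF receptor, rose by 2.02 and 1.97 in the GCN2-deletion line and WT (difference 0.05, interval -0.13 to 0.24). Ptgs2, cyclooxygenase 2, was the lower one (-0.61, adjusted p = 0.0102, and 0.0639 when the 4 groups were fitted alone) and had 355, 409 and 422 TPM in starved GCN2-deletion cells, against 118, 133 and 119 TPM in starved WT cells.

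Mitotic genes fell in 12 of 24 cases in the GCN2-deletion line and 23 of 24 in WT, where 12.2% and 17.4% of all genes fell. The difference was higher for 8 and lower for 0, where 3.69% and 4.17% of all genes were, with a median of 0.27. Prc1, a spindle midzone protein, had 123, 120.4 and 128 TPM starved and 128, 124 and 131 TPM untreated in the GCN2-deletion line, and 74.5, 70.7 and 67.6 TPM starved and 126, 111 and 101 TPM untreated in WT (difference 0.61, adjusted p = 0.000309). The count of 8 was 5 without starved WT replicate 3 or untreated WT replicate 2, 14 without untreated WT replicate 3, 5 after rescaling and 4 when the 4 groups were fitted alone. In DNA replication, 2 of 26 were higher and 1 lower, where 3.69% and 4.17% of all genes were. The higher ones were Ccne1 (0.68) and Rrm2 (0.47), each of which rose in the GCN2-deletion line and fell in WT. The lower one was Gins4, and 0 were lower with DMSO-treated controls or after rescaling.

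Outside the amino acid lists, single stress genes had lower responses while most of their lists did not. Of 23 ER chaperone and degradation genes 5 were lower, with a median of -0.02. Xbp1, a factor of the unfolded protein response, had 30.7, 29.4 and 30.9 TPM starved and 56.4, 52.9 and 51 TPM untreated in the GCN2-deletion line, and 44.2, 46.8 and 46 TPM starved and 38.3, 37.2 and 37 TPM untreated in WT (difference -1.07, adjusted p = 6.36e-08). The chaperone gene Hspa5 differed by -0.51, its co-chaperone Dnajb9 by -1.01, and the ER stress sensor Atf6 by -0.84. Among 12 mitochondrial chaperones and proteases 3 were lower (5 after rescaling), led by the protease Lonp1, with 68.1, 70.3 and 69 TPM starved and 84.5, 85.2 and 79.1 TPM untreated in the GCN2-deletion line, and 229, 251 and 257 TPM starved and 124, 129 and 126 TPM untreated in WT (difference -1.21, adjusted p = 1.04e-11). Of 19 antioxidant genes of the NRF2 list 4 were lower (2 when the 4 groups were fitted alone), led by haem oxygenase Hmox1, which averaged 59.5 ± 0.915 TPM starved and 77 ± 5.16 TPM untreated in the GCN2-deletion line, against 151 ± 11.3 and 68.5 ± 2.07 TPM in starved and untreated WT (difference -1.49, adjusted p = 7.24e-13).

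Of 15 clock genes 3 were lower. Ciart, a repressor of the clock, had 3.27, 2.86 and 5.77 TPM in starved GCN2-deletion cells and 5.56, 4.8 and 4.76 TPM in untreated ones, against 67.9, 72.8 and 81.2 TPM in starved WT cells and 9.25, 9.22 and 6.29 TPM in untreated ones. Starved WT cells stood apart, and the GCN2-deletion groups overlapped (difference -3.36, adjusted p = 4.7e-11). Cry2 differed by -1.40 (adjusted p = 1.41e-06) and Per2 by -0.80 (adjusted p = 0.00604, and 0.102 when the 4 groups were fitted alone), whereas the core activator Arntl rose alike in both lines (difference 0.03, interval -0.22 to 0.28). Among 26 lysosome and autophagy genes 6 were lower (3 with DMSO-treated controls) and 1 higher, with the cargo receptor Sqstm1 (-1.01) and the phosphoinositide-binding protein gene Wipi2 (-0.67) the furthest down. Apart from Sesn2 and Ddit4, the amino acid sensing genes upstream of mTORC1 showed 2 calls in 16, Rraga (-0.28) and Rragb (-0.58), and the Rragb call ended when any of 6 libraries was left out. Heat shock genes were higher in 5 of 20 cases (2 after rescaling) and lower in 1, p53 targets higher in 2 (1 with DMSO-treated controls) and lower in 4 of 20, and BMP signalling genes higher in 3 (1 to 5 over other settings) and lower in 3 of 18. In lists with few calls, read beside the 4.17% of all genes that were lower and the 3.69% that were higher, glycolysis and hypoxia genes were lower in 4 of 20 cases, or 2 with DMSO-treated controls. Regulators of eIF2 were lower in 2 of 14, or 1 with those controls, and ribosomal proteins in 1 of 32, or 0. Polyamine genes were higher in 1 and lower in 2 of 12, or 0 and 1, and interferon-stimulated genes were higher in 2 of 14, or 0.

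The same lines were also given 200 nM thapsigargin, which blocks the ER calcium pump, or DMSO. Trib3, Asns and Slc7a11, none of which rose with starvation in the GCN2-deletion line, stood higher there with thapsigargin than with DMSO in every library. These genes do not stand for all. Of the 188 genes lower by at least 2-fold with starvation, the thapsigargin response was lower than in WT for 41 and higher for 29. No share over all genes was counted for that comparison. Trib3 had 208, 206 and 216 TPM with thapsigargin and 6.38, 5.38 and 4.78 TPM with DMSO in the GCN2-deletion line, against 295, 324 and 291 TPM with thapsigargin and 21.4, 20.9 and 18.9 TPM with DMSO in WT. The difference of thapsigargin responses between the lines was 1.20 (interval 0.84 to 1.55), beside -5.11 for starvation. Tested as a difference of differences, the starvation value was lower than the thapsigargin value by 6.30 on the log2 scale (adjusted p = 4.67e-16). Asns had 242, 218 and 237 TPM with thapsigargin and 88.5, 87.9 and 90.8 TPM with DMSO in the GCN2-deletion line, against 282, 274 and 292 TPM with thapsigargin and 167, 161 and 168 TPM with DMSO in WT (difference of thapsigargin responses 0.60, difference of differences -2.02, adjusted p = 1.57e-13). Slc7a11 had 17.2, 17.5 and 16.3 TPM with thapsigargin and 1.03, 1.16 and 1.32 TPM with DMSO in the GCN2-deletion line, against 11.1, 6.82 and 6.98 TPM with thapsigargin and 2.94, 1.42 and 2.61 TPM with DMSO in WT (difference of differences -4.85, adjusted p = 1.01e-10).

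Over all genes the difference of differences was lower for 709 (4.41%) and higher for 180 (1.12%), counts that depended strongly on the controls and weights. With DMSO-treated controls for starvation they were 3573 lower and 872 higher, and with array weights by restricted likelihood 2065 and 301. Of the 188 genes whose starvation response was lower by at least 2-fold, 152 were also lower in this test, which contains the starvation difference, so that count is a description. It ran from 145 to 175 across settings. Of the 23 ER chaperone and degradation genes, 4 were lower and 1 higher in the difference of differences. Hspa5, a member of that list, had 3749, 3469 and 3677 TPM in GCN2-deletion cells given thapsigargin, against 5164, 4768 and 4888 TPM in WT cells given it. Its starvation and thapsigargin differences were -0.51 and -0.29, and no call was made for the difference between them (-0.22, interval -0.47 to 0.04, adjusted p = 0.386). For Fosb the starvation difference was above the thapsigargin difference (1.39 and -0.49, difference of differences 1.88, adjusted p = 0.000126). Among the 24 mitotic genes the thapsigargin difference was higher for 16 and lower for 0, with a median of 0.38. The share of all genes called in the thapsigargin difference was not counted, so whether the mitotic genes stand out there is not known. In the difference of differences 0 of the mitotic genes were called higher and 0 lower. Rescaling the libraries by median of ratios shifted the median of this test over all genes by 0.117 and gave 675 lower and 430 higher.

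**Figure D5:**
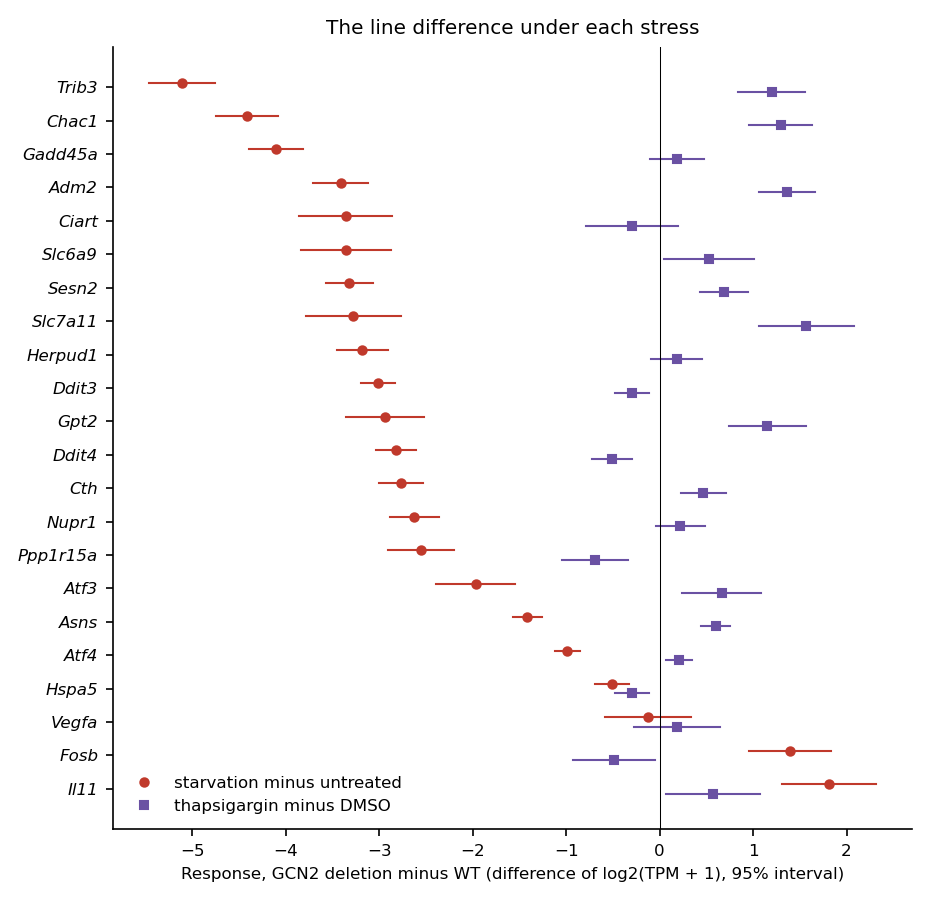
Difference of responses, GCN2 deletion minus WT, for 22 genes under starvation (red circles, starved against untreated) and under thapsigargin (purple squares, thapsigargin against DMSO), with 95% intervals on the log2(TPM + 1) scale. Starvation values run from -5.11 for Trib3 to 1.81 for Il11, while the thapsigargin values stay between -0.69 and 1.57.

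The label of fibroblasts was checked against markers. Of 10 fibroblast genes 9 were above the filter, Lum was at or near 0 in all 12 libraries, and the collagen genes Col1a1 and Col1a2 averaged 1348 and 553 TPM in untreated GCN2-deletion cells, against 1058 and 476 TPM in untreated WT cells. The 9 had a median difference of responses of 0.07 and 1 call, Pdgfra, a growth factor receptor of mesenchymal cells (difference -1.0, adjusted p = 0.000279). Pdgfra had 18.9, 15.9 and 15.2 TPM starved and 24.5, 20.8 and 28.9 TPM untreated in the GCN2-deletion line, and 5.25, 4.44 and 6.16 TPM starved and 3.56, 3.62 and 3.39 TPM untreated in WT. Epithelial markers were below the filter for 7 of 7 genes, macrophage markers for 6 of 7 and endothelial markers for 5 of 7. Smooth muscle markers passed for 5 of 6. Of those 5, 4 were higher and 1 was lower in untreated GCN2-deletion cells than in untreated WT cells, where 21.2% and 23.2% of all genes were. Their median was 3.43 on the log2 scale, while 0 of 5 differed in response. Among 5 neural markers, 2 were higher in response, Nes (0.65) and Sox2 (0.49), and Tubb3 was lower (-0.54), with the Sox2 call lost without any of 3 GCN2-deletion libraries and the Tubb3 call without untreated WT replicate 1. Whether other cells had a part in any result was not tested.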

How the data were processed

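Total RNA of 12 libraries, from stranded Illumina libraries per the labels' protocols, was compared within a series of 36. The deposited values are TPM per gene symbol, and the submitters' processing notes name FastQC, kallisto and the mouse build mm10, with versions not given in the sources used here. TPM keeps no sequencing depth, so depth is unknown and no counting interval is given.

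Of 54735 symbols, 16083 reached 1 TPM in 3 or more libraries and entered the test. The log2(TPM + 1) values of all 36 libraries went into limma 3.58.1 (R 4.3.3), which fitted a mean for each of 12 groups. The fit had a trend in the variance, Benjamini-Hochberg adjustment over all genes tested and a threshold of 0.05. Intervals cover 95%. Fold changes are on the log2(TPM + 1) scale, which understates the change of low genes. The pipeline was tested on simulated data. Python 3.11.15 with pandas 2.3.3 drew up counts, and matplotlib 3.10.9 the figures.

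The members and lists were chosen with earlier results of these data known. The 115 genes named by rule were a panel of 16, the 12 with the largest called difference in each direction among protein-coding genes with a group mean of at least 5 TPM, 3 per list and 4 per response class; other genes named were chosen after their values were seen. Alternatives were DMSO-treated controls, another pseudocount (0.1), median-of-ratios rescaling, other filters, the 4 groups alone, array weights, a replicate block and leaving out each library. Replicate numbers are not described as pairs by the labels. A planned comparison with the PERK-deletion line was left out because its calls depended on single libraries.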

Additional observations from a re-analysis of the deposited data

Results flagged for a closer look

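For 25 of the genes named, starvation was called in opposite directions in the GCN2-deletion line and WT, and the difference of responses itself passed an adjusted p of 0.05 (limma, Benjamini-Hochberg). Among all 16083 genes, 104 fell in the GCN2-deletion line and rose in WT, and 27 rose in the GCN2-deletion line and fell in WT. Values in parentheses are differences of responses on the log2(TPM + 1) scale, GCN2 deletion minus WT.

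Many genes were named because they belong to the lists described, so membership in a list is no result here. It was not counted for the 104 genes. The named genes that fell in the GCN2-deletion line and rose in WT are grouped by role. Among stress factors and feedback genes these were Trib3 (-5.11), Gadd45a (-4.10), Chac1 (-4.41), Adm2 (-3.41), Ddit3 (-3.01), Nupr1 (-2.62), Sesn2 (-3.32) and Ddit4 (-2.82). Among genes of amino acid metabolism, import and tRNA charging they were Slc6a9 (-3.36), Gpt2 (-2.94), Slc1a4 (-2.38), Pck2 (-2.13), Asns (-1.42), Cars (-1.42), Sars (-1.21) and Psat1 (-0.61). Genes of protein quality control with such calls were Herpud1 (-3.18), Lonp1 (-1.21) and Xbp1 (-1.07). Hmox1, haem oxygenase, had -1.49, Acot2, a mitochondrial acyl-CoA thioesterase, -3.13, and Oaz2, an inhibitor of ornithine decarboxylase, -0.36.

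The other direction, higher in the GCN2-deletion line and lower in WT, was seen for 3 of the genes named. These were the chemokine gene Cxcl1 (1.04), the cyclin gene Ccne1 (0.68) and Rrm2 (0.47), a subunit of ribonucleotide reductase.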

How the results depend on the processing

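Among the 115 genes named, the call was lost for 25 with the 4 groups alone, 19 with restricted-likelihood weights, 15 with DMSO-treated controls, 12 with no filter, 8 with a pseudocount of 0.1, 5 after rescaling, and 2 to 14 when single libraries were left out. No called difference among them changed sign in an alternative that tested the gene (113 were tested with the 5 TPM filter). The count of genes lower by at least 2-fold (188) ran from 169 to 197 when single libraries were left out. The number with a higher response (593) was 2635 with array weights estimated gene by gene, 284 with array weights by restricted likelihood and 302 with the 4 groups alone. It was 423 to 1239 when libraries were left out, highest without untreated WT replicate 3, where it exceeded the lower count (659). It also exceeded the lower count without untreated GCN2-deletion replicate 3 (676 against 624) and with gene-by-gene weights. The number with a lower response (670) was 1384 with gene-by-gene weights and 555 to 708 when libraries were left out. The 57 higher by at least 2-fold became 37 with DMSO-treated controls, 144 with gene-by-gene weights and 40 to 111 when libraries were left out, highest without untreated WT replicate 3. In the GCN2-deletion line, the 1887 genes that rose became 3488 and 4169, and the 1956 that fell 3435 and 4156, with gene-by-gene and restricted-likelihood weights (1274 to 2152 and 1503 to 2181 when libraries were left out). In WT the 2016 that rose became 1250 with restricted-likelihood weights (1655 to 2084) and the 2794 that fell 1135 (2042 to 3474). Untreated, the 3732 lower genes became 2005 (2866 to 4691), and the 3413 higher ones ran from 3051 to 3473. For the difference from the thapsigargin difference, the 180 higher genes became 872 with DMSO-treated controls, 798 and 301 with gene-by-gene and restricted-likelihood weights, and 430 after rescaling (146 to 206). The 709 lower became 3573, 2662 and 2065 in the first 3 of these and 1213 with protein-coding genes alone (595 to 950). The restricted-likelihood estimate of the weights stopped before convergence, and gene-by-gene weights were chosen after seeing the data; the cause of these shifts was not tested.

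Depth limits could not be assessed, since TPM keeps none. Replicate numbers did not pair the samples (correlations of same-numbered deviations -0.179 to 0.081, with 0 of 18 above 0.1). With the replicate block, 604 genes were higher and 680 lower, 54 and 187 of them by at least 2-fold.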

Other observations

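Some genes of the response classes have not been given with values so far. Fgf2, a fibroblast growth factor, rose by 1.88 in the GCN2-deletion line and 2.10 in WT on the log2(TPM + 1) scale (difference -0.23, adjusted p = 0.779, limma with Benjamini-Hochberg adjustment). Rgs16, which quenches G protein signals, rose by 1.47 in the GCN2-deletion line and 2.18 in WT (difference -0.71, adjusted p = 0.000107). Scd2, a fatty acid desaturase, fell in both lines, with changes of -1.45 in the GCN2-deletion line and -1.53 in WT (difference 0.07, adjusted p = 0.814).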
